A study of Mus musculus with 6 samples.

Results

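Nuclear receptors of the NR4A family (*Nr4a1*, *Nr4a2* and *Nr4a3*), early growth response factors (*Egr1*, *Egr2* and *Egr3*) and the synaptic immediate-early gene *Arc* were followed in the abdominal aorta of mice that lack PRDM16 in smooth muscle. These 7 genes were taken by symbol from the 55426 genes of the expression table. They were chosen by gene family with their knockout-against-control values already known. Those values, and the calls from the fit over all genes, are therefore given as a description and not as a test of the 7.

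Abdominal aortas of male C57BL/6J mice were compared between 3 control and 3 *Prdm16*SMKO replicates, with 1 RNA library per replicate. *Prdm16*SMKO mice are *Prdm16* fl/fl animals that carry *Myh11*-CreERT2, a tamoxifen-inducible Cre recombinase made in vascular smooth muscle cells (VSMCs), and the controls carry *Myh11*-CreERT2 alone. By the methods of the study, mice of 8 to 10 weeks received tamoxifen at 75 mg/kg/day by gavage for 5 days, and the aneurysm experiments began 2 weeks later. The sequenced aortas had no aneurysm stimulus, and the age at which they were taken is not given in the sources used here. The *Myh11* promoter limits Cre to smooth muscle, so *Prdm16* is not targeted in endothelial cells, fibroblasts or macrophages of the vessel. Expression is given in TPM, a measure of transcript abundance corrected for transcript length, so levels can be compared between genes within a library. Whole vessels were used, and in such bulk samples fewer cells of a type and less RNA per cell cannot be told apart. The labels number the libraries without naming the animals, and p-values measure only the spread between these libraries, which may be technical.

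Immediate-early genes are transcribed within minutes of a stimulus such as a growth factor, stretch, membrane depolarization or tissue handling, and need no new protein synthesis for it. Most of them encode transcription factors that start a later wave of transcription, and their mRNAs are short-lived. In the vessel wall, EGR1 is known as a factor induced by injury and shear stress, and NR4A receptors as factors induced by mitogens and inflammatory signals. They are switched on through serum response factor (SRF), which binds CArG boxes, and through CREB, which binds cAMP response elements (CREs).

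The targeted gene was measured first. *Prdm16* stood at 33.4, 36.8 and 30.8 TPM in the controls and at 20.8, 27.7 and 14.8 TPM in the knockouts. All 3 knockout libraries were below all 3 controls, with a control mean 1.60 times the knockout mean, and in the fit over all genes its log2 fold change of −0.70 ± 0.23 (SE) did not pass (limma, adjusted p = 0.376). This value counts the whole gene in all cell types. The VSMC markers *Myh11* (1488 to 3242 TPM), *Acta2* (5256 to 13020 TPM) and *Tagln* (3001 to 5501 TPM) were high in every library, and their ranges overlapped between the groups. Depth per library is not recorded in TPM values. The labels give an average of 40 M read pairs of 151 bp, and 20332 to 22100 genes were above 0 per library. Of a library's TPM, 15.6% to 31.4% belonged to the 45S ribosomal RNA locus and 15.8% to 27.4% to mitochondrial transcripts.

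*Nr4a1*, which encodes the orphan nuclear receptor NUR77 and lies at chr15:101254269-101274795 (plus strand, GRCm38, GENCODE M21), had the highest level of the 7 genes in the controls. It stood at 131, 130.2 and 187 TPM in the control libraries and at 19.8, 26.2 and 36.3 TPM in the knockout libraries. The groups were far apart, with the highest knockout at 36.3 TPM and the lowest control at 130.2 TPM. The means were 149 ± 32.5 TPM and 27.4 ± 8.31 TPM (SD, n = 3 each), a control level 5.45 times the knockout level and a log2 fold change of −2.45 ± 0.24 (SE) on log2(TPM + 0.5). Among the 15775 genes tested, whose mean TPM was 0.5 or more, its mean level went with percentile 96.5 in the controls and 79.3 in the knockouts.

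*Nr4a2* (chr2:57106830-57124003, minus strand), which encodes NURR1, a receptor best known from dopaminergic neurons, was expressed at a far lower level. Its values were 7.78, 6.96 and 9.53 TPM in the controls and 2.56, 3.34 and 2.39 TPM in the knockouts. No knockout library reached any control, and the log2 fold change was −1.40 ± 0.21. *Nr4a3* (chr4:48045153-48086447, plus strand), which encodes NOR1, was measured at 7.66, 9.53 and 13.9 TPM in the controls and at 2.16, 3.56 and 6.42 TPM in the knockouts. Its groups did not overlap either, but knockout 3 came close to control 1. The log2 fold change was −1.33 ± 0.35, with the largest standard error of the 7 genes.

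The 3 receptors summed to 147 to 210.3 TPM per control library and to 24.5 to 45.1 TPM per knockout library. *Nr4a1* made up 88.8% to 89.5% of the family's TPM in the controls and 79.2% to 80.7% in the knockouts. The share of *Nr4a3* was 5.23% to 6.61% in the controls and 8.82% to 14.3% in the knockouts, and that of *Nr4a2* overlapped (4.53% to 5.31% and 5.30% to 10.5%). The family was thus both lower in sum and less dominated by *Nr4a1* in the knockout libraries.

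**Figure D1:**
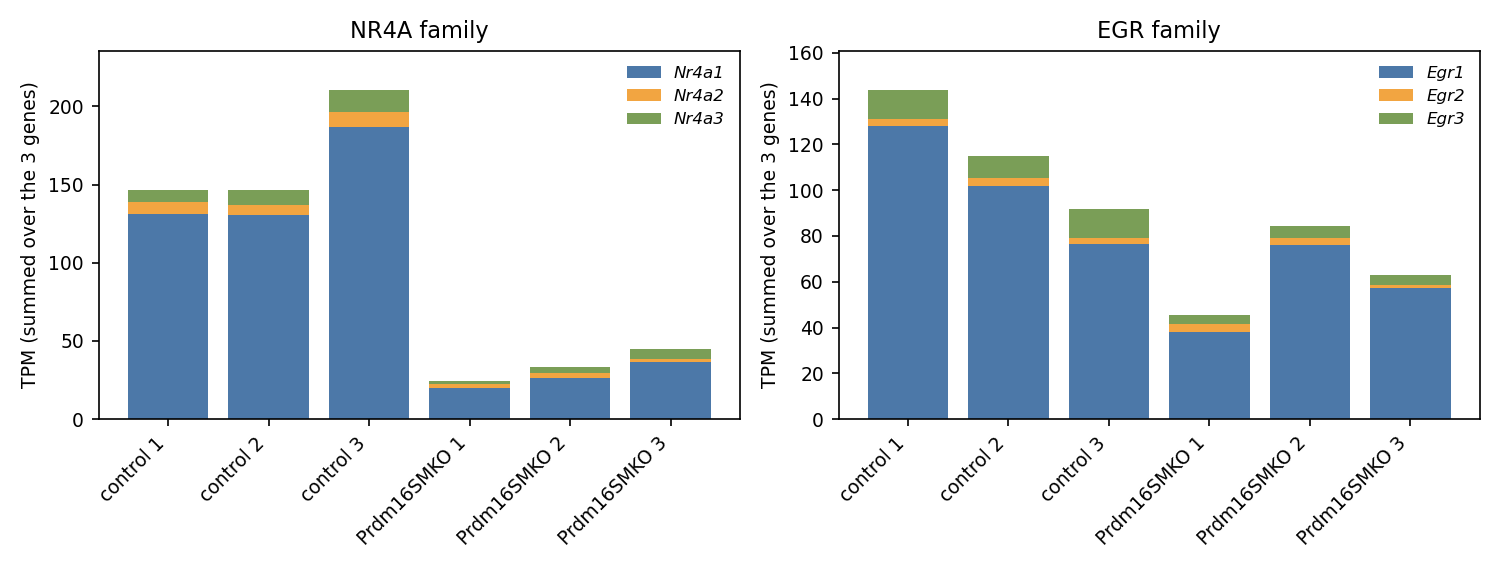
TPM per library (y axis) of the NR4A family (left) and the EGR family (right), stacked by gene, for 3 control and 3 *Prdm16*SMKO libraries (x axis). The NR4A sum lies between 24.5 and 45.1 TPM in the knockouts, below every control, and the EGR sum lies between 45.4 and 84.2 TPM, also below every control.

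The promoters are shown because the 3 receptor genes were all lower in the knockouts and because CREB and SRF are known to act on such windows. RefSeq windows on GRCm38.p6, from 250 bases before to 50 bases after a transcription start, were found for 4 of the 7 genes (*Nr4a1*, *Nr4a2*, *Nr4a3* and *Egr2*) and not for *Egr1*, *Egr3* and *Arc*. The bases before the start are printed on the strand of the gene, without any stretch that GENCODE M21 annotates as exon. For *Nr4a1* the bases are at chr15:101266596-101266845 (plus strand), before an internal start of the gene. For *Nr4a2* they are at chr2:57124004-57124253 (minus strand), and for *Nr4a3* at chr4:48045055-48045152 (plus strand). Capitals mark each CRE core, TGACG or its complement CGTCA, which is a single site of the paired full CRE and is known to be bound by CREB on its own.
Nr4a1: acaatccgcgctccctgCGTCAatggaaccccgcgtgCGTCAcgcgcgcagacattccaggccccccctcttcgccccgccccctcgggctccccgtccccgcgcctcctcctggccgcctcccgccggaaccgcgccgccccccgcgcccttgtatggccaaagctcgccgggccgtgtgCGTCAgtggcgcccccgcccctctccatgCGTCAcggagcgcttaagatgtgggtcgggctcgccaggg
Nr4a2: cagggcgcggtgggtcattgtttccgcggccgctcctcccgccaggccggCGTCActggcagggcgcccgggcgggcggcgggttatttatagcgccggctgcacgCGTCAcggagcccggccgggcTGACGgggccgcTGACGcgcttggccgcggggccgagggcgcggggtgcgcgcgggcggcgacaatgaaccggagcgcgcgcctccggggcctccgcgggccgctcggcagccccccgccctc
Nr4a3: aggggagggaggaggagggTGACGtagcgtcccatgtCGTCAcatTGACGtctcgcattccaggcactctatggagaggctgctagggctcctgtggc

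Each of the 3 receptor windows held 4 CRE cores on the 2 strands together. In *Nr4a1* they began 233, 213, 69 and 40 bases before the start, all on the opposite strand. In *Nr4a2* they began 200, 144, 123 and 111 bases before it, and in *Nr4a3* 231, 213, 205 and 147 bases before it, the last of them inside an annotated exon and not printed. At least 1 CRE core was found in 20.8% of all 32851 windows, and at least 4, a number taken after these windows were seen, in 0.231%. A full CRE (TGACGTCA, which holds 2 overlapping CRE cores) was in 1.79% of all windows and a CArG box (CCWWWWWWGG, W being A or T) in 1.63%. The EGR site GCGTGGGCG was in 0.612% and the NR4A monomer site NBRE (AAAGGTCA) in 1.51%. None of these 4 motifs matched exactly in the 3 receptor windows, and near matches were not searched. Genes with several starts contribute several windows to these shares. A match is a match of letters and was not measured as binding.

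**Figure D2:**
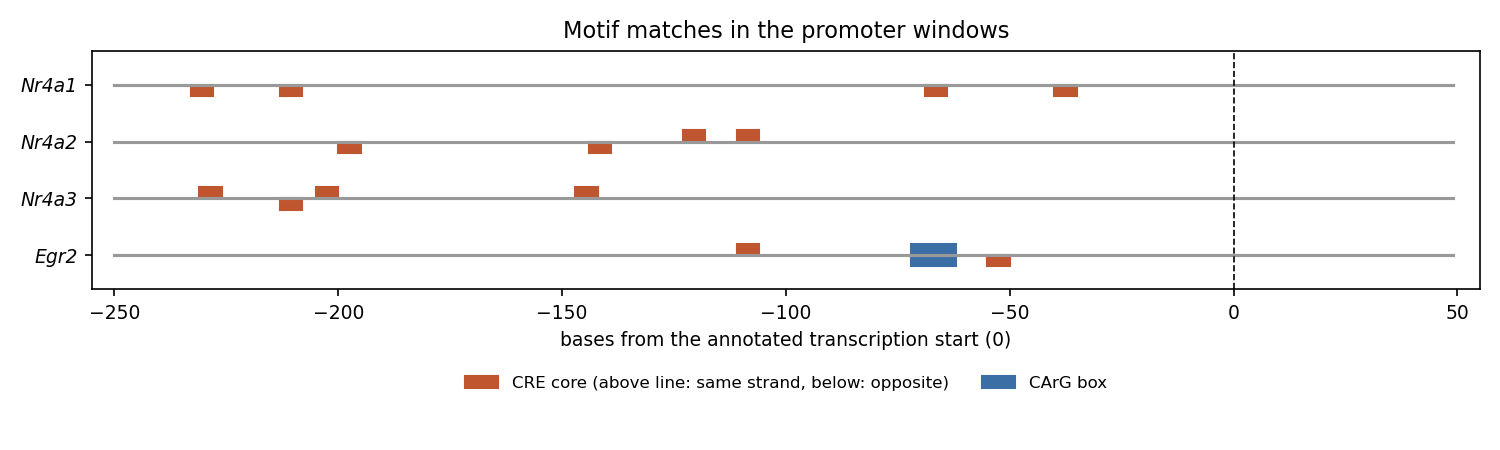
Matches of the CRE core (orange) and the CArG box (blue) in the promoter windows of *Nr4a1*, *Nr4a2*, *Nr4a3* and *Egr2* (rows), by distance in bases from the annotated start (x axis). Blocks above a line are on the strand of the gene and blocks below it on the opposite strand. Each receptor gene has 4 CRE cores, and *Egr2* has 2 around a CArG box.

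*Egr1* (chr18:34859823-34864984, plus strand) encodes a zinc finger factor that binds GC-rich promoters and is a classical target of SRF. It stood at 128, 102 and 76.6 TPM in the controls and at 37.9, 75.9 and 57.1 TPM in the knockouts. The knockout libraries were all lower, but knockout 2 and control 3 were almost level. The means were 102 ± 25.8 and 57.0 ± 19.0 TPM (SD, n = 3 each), and the log2 fold change was −0.86 ± 0.28.

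*Egr2* (chr10:67535475-67542188, plus strand), known from Schwann cell myelination and lymphocytes, was the lowest of the family in the controls. Its values were 3.01, 3.26 and 2.50 TPM in the controls and 3.67, 3.05 and 1.68 TPM in the knockouts. Both the highest and the lowest library were knockouts, and the log2 fold change was −0.10 ± 0.28. *Egr3* (chr14:70077203-70082614, plus strand), a close relative of *Egr1* with the same kinds of stimuli, stood at 12.4, 9.60 and 12.9 TPM in the controls and at 3.85, 5.24 and 4.25 TPM in the knockouts. The groups were well separated, with means of 11.6 ± 1.77 and 4.45 ± 0.716 TPM (SD, n = 3 each) and a log2 fold change of −1.29 ± 0.19.

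The 3 EGR genes therefore had unlike profiles. *Egr1* made up 83.3% to 89.3% of the family's TPM in the controls and 83.4% to 90.6% in the knockouts, so its share overlapped while the sum was lower in each knockout (45.4 to 84.2 TPM) than in any control (92.0 to 144 TPM). The level of *Egr3* was 2.95 to 5.16 times that of *Egr2* in the controls and 1.05 to 2.53 times in the knockouts. The *Egr2* window printed next, before a start at base 67537869, holds both motif kinds and is at chr10:67537619-67537868 on the plus strand, with the CArG box and the CRE cores in capitals.
Egr2: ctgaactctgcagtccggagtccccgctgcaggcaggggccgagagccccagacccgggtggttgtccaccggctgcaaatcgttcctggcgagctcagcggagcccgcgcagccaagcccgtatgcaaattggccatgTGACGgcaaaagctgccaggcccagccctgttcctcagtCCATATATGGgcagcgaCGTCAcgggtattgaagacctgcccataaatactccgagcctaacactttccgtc

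The CArG box of *Egr2* began 72 bases before this start, between CRE cores at 111 and 55 bases before it. Of the 5 *Egr2* windows, 4 held a CArG box and 3 of those also held 2 CRE cores, and these 3 overlap and share their matches. No full CRE, EGR site or NBRE matched in any *Egr2* window.

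*Arc* (chr15:74669083-74672570, minus strand) encodes a cytoskeleton-associated protein of activated neurons and was also measured in the aorta. It stood at 7.33, 8.40 and 9.98 TPM in the controls and at 1.16, 2.18 and 2.09 TPM in the knockouts. The lowest control, at 7.33 TPM, was far above the highest knockout, at 2.18 TPM, with means of 8.57 ± 1.33 and 1.81 ± 0.565 TPM (SD, n = 3 each), a control level 4.74 times the knockout level and a log2 fold change of −2.0 ± 0.24.

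**Figure D3:**
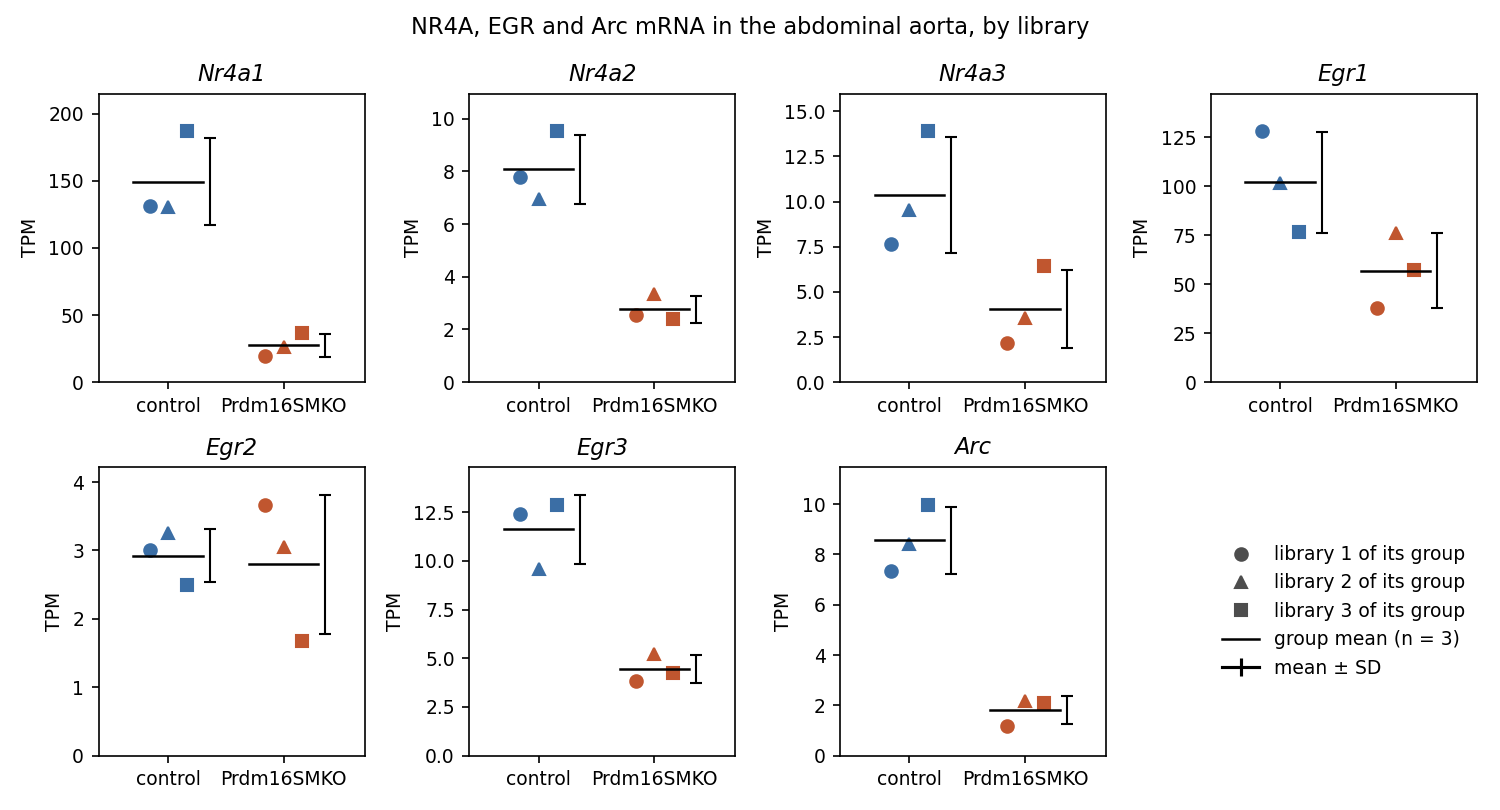
TPM (y axes, each from 0) of the 7 genes in the 3 control (blue) and 3 *Prdm16*SMKO (orange) libraries, with the group mean as a line and mean ± SD as the bar beside it. The groups do not overlap for 6 genes, and for *Egr2* the knockout libraries reach both above and below the controls.

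The order of the levels differed between the groups at its head. In the controls *Nr4a1* was above *Egr1*, then came *Egr3*, *Nr4a3*, *Arc* and *Nr4a2*, whose ranges overlapped from each to the next, and then *Egr2*. In the knockouts *Egr1* was above *Nr4a1*, followed by *Egr3*, *Nr4a3*, *Egr2* and *Nr4a2*, again with overlap from each to the next, and by *Arc*. *Nr4a1* was 1.02, 1.28 and 2.44 times *Egr1* in the control libraries and 0.522, 0.345 and 0.635 times in the knockout libraries. *Arc* went from above *Egr2* in each control library to last in the order of the means.

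Libraries of a group did not order the genes alike. Control 3 was the highest control for 5 genes (the 3 NR4A genes, *Egr3* and *Arc*) and the lowest for *Egr1* and *Egr2*. Knockout 1 was the lowest knockout for 5 genes (*Nr4a1*, *Nr4a3*, *Egr1*, *Egr3* and *Arc*) and the highest for *Egr2*. The SD within groups on the log2 scale was 0.57 for *Nr4a3* and 0.44 for *Egr1*, at percentiles 87.6 and 80.3 of all genes tested. It was 0.22 for *Nr4a2* and 0.21 for *Egr3*, at percentiles 35.0 and 33.4, so the spread was high for some of these genes and ordinary for others.

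All 7 genes were above 0 in every library and passed the minimum of 0.5 TPM, and 4 of them (*Nr4a1*, *Nr4a2*, *Egr3* and *Arc*) were called lower at an adjusted p under 0.05. Over all 15775 genes tested, 27 were called lower (0.171%) and 29 higher (0.184%). Groups did not overlap with the knockout lower for 6 of the 7 and for 5.76% of all genes, and with the knockout higher for 0 of the 7 and for 7.02%. The median log2 fold change was −1.33 over the 7 genes and 0.02 over all genes tested. Since these values chose the genes, nothing is read from the counts. The 56 genes called split into 29 higher and 27 lower, and this split was 60 and 93 under median-of-ratios scaling and 46 and 83 under quantile normalization, while array weights gave 277 and 217. Of the 7 genes, 1, 0 and 1 were called without control 1, 2 or 3, and 2 without each of the knockout libraries, and with no expression minimum 0 were called. *Egr3* and *Nr4a2* lost the call whenever a library was left out, and *Egr3* was called in 4 of 17 alternatives and lost its call under each of the 3 other scalings.

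Most other immediate-early genes had values below control in the knockouts, though few passed the test. The list held 47 genes, chosen as early genes and not by how they moved, but with earlier results of these data known. Of the 45 that passed the minimum, 34 were lower and 11 higher, 3 were called lower and 0 higher by limma, and the median log2 fold change was −0.42. At an unadjusted p under 0.05 there were 21 lower and 4 higher, against 3.85% and 4.88% of all genes. The ranges did not overlap for 17 with the knockout lower and 4 with the knockout higher, against 5.76% and 7.02% of all genes tested. Placed among these 45, *Nr4a1* had the lowest fold change of all 52 genes, *Arc* the 4th lowest, *Nr4a2* the 7th, *Nr4a3* the 9th, *Egr3* the 10th, *Egr1* the 18th and *Egr2* the 40th.

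**Figure D4:**
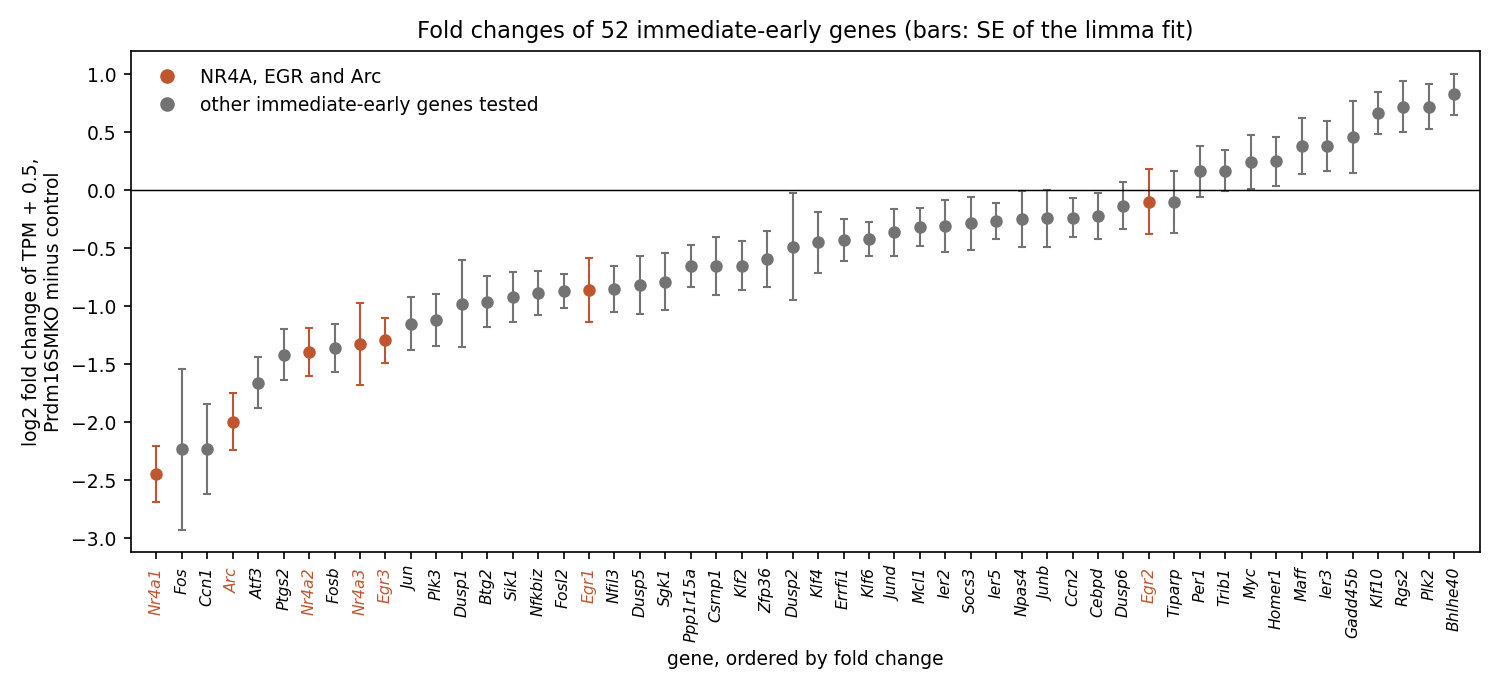
Log2 fold change of TPM + 0.5, *Prdm16*SMKO minus control (y axis), with the SE of the limma fit as bars, for the 7 genes (orange) and 45 other immediate-early genes (grey), in order of fold change (x axis). *Nr4a1* lies at −2.45 at the low end and *Bhlhe40* at 0.83 at the high end, and *Egr2* lies near 0.

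*Atf3*, a stress-induced factor that dimerizes with JUN, fell from 92.7, 85.6 and 58.9 TPM in the controls to 25.1, 28.9 and 19.7 TPM in the knockouts (log2 fold change −1.66 ± 0.22, limma, adjusted p = 0.0239). *Fosb*, an AP-1 subunit, fell from 28.6, 25.3 and 22.8 TPM to 9.86, 12.3 and 7.30 TPM (−1.36 ± 0.21, limma, adjusted p = 0.0414). *Ptgs2*, the inducible cyclooxygenase, fell from 4.90, 5.81 and 4.83 TPM to 1.28, 2.10 and 1.57 TPM (−1.41 ± 0.22, limma, adjusted p = 0.0468). These were the genes of the list past the threshold. With no expression minimum, without a variance trend or with a block for replicate number, none of the 3 was called. *Ptgs2* also lost its call with a pseudocount of 1 and at a minimum mean of 2 TPM. With 1 library left out, *Atf3* was called without control 3 and without each of the knockout libraries but not without control 1 or 2, and *Fosb* and *Ptgs2* were not called.

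Within the list of other early genes, the most abundant in the control aorta were *Ccn2*, *Ccn1*, *Jund*, *Jun* and *Mcl1*. *Ccn1*, a secreted matricellular protein, stood at 688, 699 and 519 TPM in the controls and at 65.0, 211 and 175 TPM in the knockouts, a log2 fold change of −2.23 ± 0.39 that did not pass (limma, adjusted p = 0.0638). Its family member *Ccn2*, at 1049 to 1263 TPM in the controls and 889 to 1137 TPM in the knockouts, overlapped. *Jun* had a log2 fold change of −1.15 ± 0.23 (limma, adjusted p = 0.0983), *Jund* of −0.36 ± 0.20 and *Mcl1*, an anti-apoptotic BCL2 relative, of −0.32 ± 0.17. *Fos*, named after its values were seen, stood at 134, 78.7 and 27.7 TPM in the controls and at 4.57, 22.1 and 24.7 TPM in the knockouts. Control 3, the highest library for the NR4A genes, was the lowest control for *Fos*, *Jun*, *Atf3* and *Egr1*.

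Other early genes had the opposite sign. *Klf10*, *Bhlhe40*, *Plk2* and *Rgs2*, named after their values were seen, were the 4 with each knockout library above each control, and none passed (log2 fold changes 0.67 to 0.83). With array weights *Klf10*, *Bhlhe40* and *Plk2* were called higher. *Npas4*, an early gene of depolarized neurons, overlapped between the groups (6.99 to 10.4 TPM and 5.76 to 9.93 TPM).

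The factors that act on these promoters, and the proteins that bind the members, were also measured. This list of 32 genes held SRF and its cofactors, CREB and its coactivators, MEF2, the ERK cascade and the protein partners. All 32 passed the minimum and 0 were called by limma. At an unadjusted p under 0.05, 1 was lower and 0 higher, against 3.85% and 4.88% of all genes. Without overlap there were 3 lower and 2 higher, against 5.76% and 7.02% of all genes tested, and nothing is read from these counts. The gene lower at that unadjusted p was *Crtc3*, a CREB coactivator, at 28.8 to 38.2 TPM in the controls and 22.7 to 28.0 TPM in the knockouts (log2 fold change −0.39 ± 0.17). *Srf* stood at 67.7, 88.8 and 60.7 TPM in the controls and at 60.4, 59.6 and 47.7 TPM in the knockouts, without overlap (−0.36 ± 0.19). The CREB gene *Creb1* had a log2 fold change of 0.09 ± 0.16, and *Mapk3*, a kinase gene of the ERK cascade, of 0.28 ± 0.20. The activation of these proteins by phosphorylation was not measured.

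Genes of proteins that bind EGR and NR4A factors did not pass the test. The EGR corepressor genes *Nab1* and *Nab2* had log2 fold changes of −0.05 ± 0.15 and −0.18 ± 0.17. Their control levels, 33.8 to 41.4 and 21.2 to 28.8 TPM, overlapped those of the knockouts. Of the retinoid X receptors, partners of NR4A1 and NR4A2 in heterodimers, *Rxra* stood at 25.2 to 33.0 TPM in the controls and 23.2 to 25.2 TPM in the knockouts, barely without overlap (log2 fold change −0.26 ± 0.16). *Rxrb* overlapped (−0.12 ± 0.15). *Rxrg* was higher in each knockout (1.49 to 1.73 TPM) than in any control (0.93 to 1.2 TPM), with a log2 fold change of 0.42 ± 0.25. For each of the 5, an interval of 2 standard errors to either side included 0.

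The genes with the most similar profile were found for each member by the root mean square difference of log2(TPM + 0.5), centred per gene, over the 6 libraries and 13810 genes whose mean TPM was 1 or more. A like fold between the groups alone makes this difference small, so these are descriptions. Nearest to *Nr4a1* were *Gm17241* (0.45), *Gm44126* (0.47) and *Apold1* (0.47), of which the first and the second were listed at 0 in all 3 knockouts. Nearest to *Nr4a2* were *Zfp984* (0.065), *Plk3* (0.19) and *Pdpn* (0.20), and nearest to *Egr3* were *Pdpn* (0.10), *Zfp984* (0.12) and *3010001F23Rik* (0.22).

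*Nr4a3* had *Gm20900* (0.34), *Bcl6b* (0.35) and *Gli2* (0.37) as its nearest genes. *Egr1* had *Btg2* (0.11), *Gm13305* (0.12) and *Brms1l* (0.16), and *Egr2* had *Arid3b* (0.046), *Smim1* (0.060) and *Rtl8c* (0.075). *Arc* had *Apold1* (0.28), *Gm13056* (0.34) and *Ptgs2* (0.35). *Btg2*, *Plk3* and *Ptgs2* are themselves early genes. *Btg2* followed *Egr1* library by library, at 76.5, 67.0 and 51.9 TPM in the controls and 25.2, 41.6 and 33.8 TPM in the knockouts. With the members included in the search, *Arc* was the gene nearest to *Nr4a1* and *Nr4a1* the gene nearest to *Arc*, while *Nr4a2* and *Egr3* each had the other at the second place.

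Heat shock chaperones and clock genes also differed in level between the same libraries. All 11 chaperone genes listed were lower, 8 of them without overlap, against 5.76% of all genes tested with the knockout lower. Their summed level was 3503 to 4067 TPM in the controls and 1786 to 2498 TPM in the knockouts. None of the chaperone genes was called by limma, and 7 were lower at an unadjusted p under 0.05, against 3.85% of all genes. Nearest to the threshold were *Dnajb1* (log2 fold change −1.26 ± 0.21, limma, adjusted p = 0.0553) and *Hspa1a* (−1.54 ± 0.27, limma, adjusted p = 0.0648). Of 18 clock genes, 4 were lower and 14 higher. Without overlap there were 4 lower and 11 higher, against 5.76% and 7.02% of all genes tested. *Npas2*, a partner of BMAL1, fell from 7.73, 11.1 and 8.62 TPM to 0.81, 1.49 and 0.32 TPM (−2.89 ± 0.33, limma, adjusted p = 0.0149). The clock genes *Dbp*, *Hlf* and *Ciart* were each higher in every knockout than in any control. *Arntl* (1.94 to 2.48 TPM in the controls, 0.35 to 1.08 TPM in the knockouts) was lower in every knockout. So was *Clock* (15.4 to 17.3 TPM in the controls, 11.5 to 14.0 TPM in the knockouts). *Per1*, *Nfil3* and *Bhlhe40* stand in both the clock list and the list of early genes. The labels hold no hour of collection, and the part of either group of genes in the levels of the 7 was not tested.

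**Figure D5:**
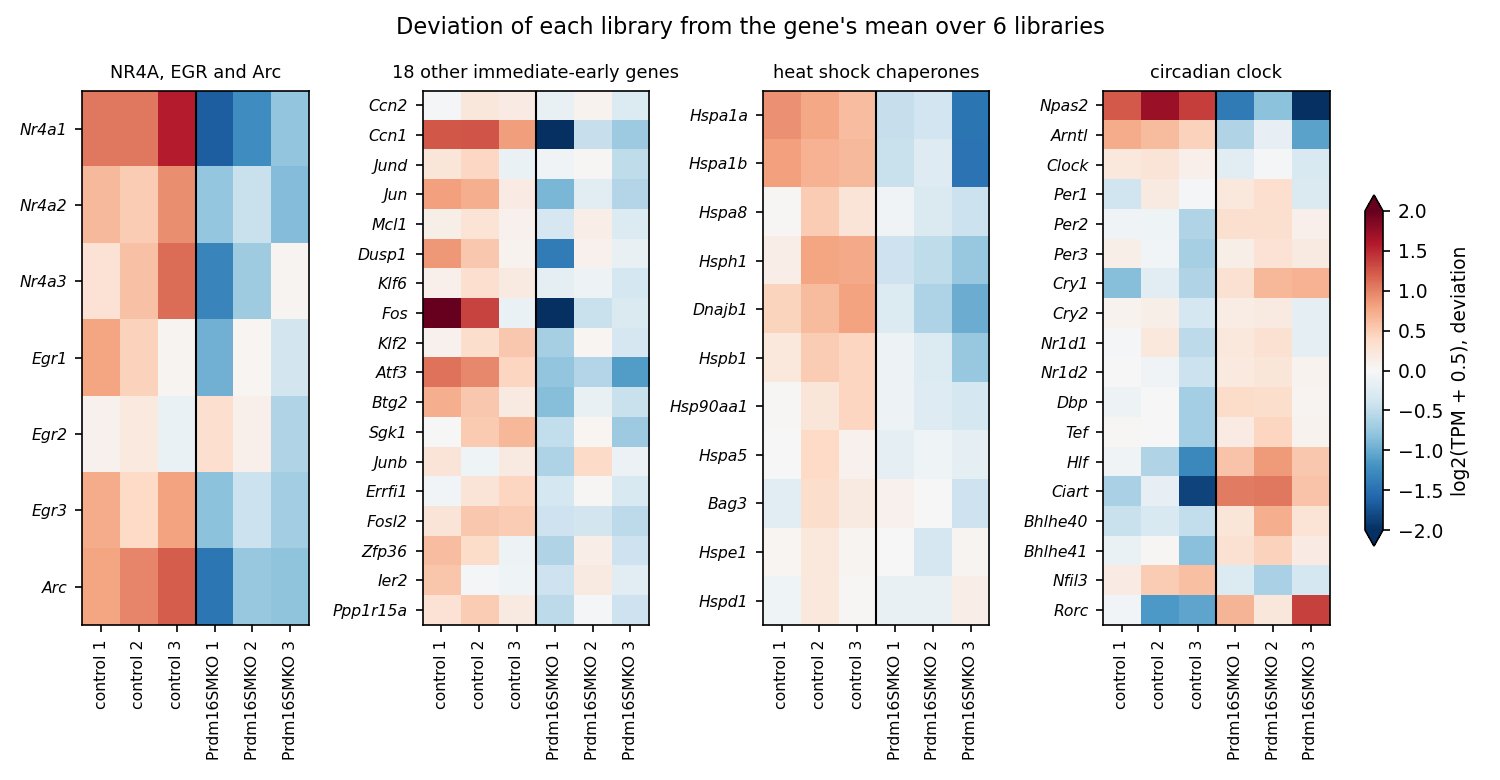
Log2(TPM + 0.5) of each gene minus its mean over the 6 libraries (colour, cut at −2 and 2), for the 7 genes, the 18 other immediate-early genes with the highest control mean, 11 heat shock chaperones and 18 clock genes, with libraries as columns. Control columns are above the mean for all 7 genes except *Egr2* and knockout columns below it or near it. Of the 11 chaperones, 8 have every knockout column below every control column, and the others overlap. Of the 18 clock genes, 4 are lower and 14 higher in the knockouts.

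Markers of other cell types were uneven among the libraries. All 8 neuron and all 6 Schwann cell markers had log2 fold changes above 0, with 0 and 1 of them without overlap, against 7.02% of all genes tested. The 8 neuron markers summed to 723 TPM in knockout 1 and 203 TPM in control 2, against 41.2 to 96.9 TPM in the other libraries, and *Th*, *Snap25* and *Tubb3* were at 67.6, 48.1 and 86.3 TPM in knockout 1. Knockout 1, the library with the highest sum of neuron markers, was the lowest knockout for *Arc*, *Egr1*, *Egr3*, *Nr4a1* and *Nr4a3*. The 6 Schwann cell markers followed the same order at the top, at 194 TPM in knockout 1 and 88.7 TPM in control 2, and *Egr2* was highest in these 2 libraries within their groups. Without both libraries, an alternative added after the data were seen, the log2 fold changes were −2.32 for *Nr4a1*, −1.78 for *Arc*, −1.45 for *Nr4a2* and −1.33 for *Egr3*. They were −1.03 for *Nr4a3*, −0.59 for *Egr1* and −0.22 for *Egr2*, and 1 of the 7 genes (*Nr4a1*) was called. The part of nerve tissue in these levels was not tested.

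All 8 macrophage markers were higher in the knockouts, 3 without overlap and 5 at an unadjusted p under 0.05, against 7.02% and 4.88% of all genes tested. Their sum was 71.1 to 112 TPM in the controls and 113 to 204 TPM in the knockouts. Sums of the 4 erythroid markers reached 10970 TPM in knockout 2, against 627 to 2728 TPM in the other libraries, and those of the 6 adipocyte markers 2395 TPM in knockout 3, against 479 to 967 TPM. All 4 erythroid markers had log2 fold changes above 0, 1 without overlap and 3 at an unadjusted p under 0.05. All 6 adipocyte markers did too, 1 without overlap and 2 at that p, against the same shares of all genes. The 3 brown adipocyte markers tested had log2 fold changes below 0, 0 of them without overlap. The 8 VSMC markers summed to 14920 to 25280 TPM in the controls and to 11510 to 17650 TPM in the knockouts, with overlap, and 6 were lower. The sums of the 8 endothelial (203 to 256 and 224 to 436 TPM) and 7 fibroblast markers (1319 to 1493 and 1084 to 1928 TPM) overlapped as well. By fold change 7 endothelial markers were higher and 1 lower, and 6 fibroblast markers were higher and 1 lower. Lymphocyte markers summed to 0.45 to 4.36 TPM, the mesothelial marker *Msln* was at 0 in 5 libraries, and the atrial myosin gene *Myl7* was at 0 in all 6. The part of these cell types in the levels of the 7 genes was not tested.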

How the data were processed

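RNA of mouse abdominal aorta, in 3 control and 3 *Prdm16*SMKO libraries, was sequenced after poly(A) selection with a library kit that keeps no record of strand. The annotation has 0 genes that overlap any of the 7 genes. The authors deposited TPM values, which account for transcript length and have an equal total in all libraries, rounded to 2 decimals for 55426 genes. The submitters' processing notes name GRCm38, bcl2fastq, cutadapt 2.3, FastQC 0.11.8, STAR 2.7.8a, RSEM 1.3.3 and MultiQC 1.7, without roles. TPM keeps no depth, so counting errors and limits of detection could not be computed.

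Libraries were joined to groups by the names in the labels, and 0 pairs of libraries were identical. Expression was taken as log2(TPM + 0.5), which understates changes of low genes, for the 15775 genes whose mean TPM was 0.5 or more. Groups were compared by limma 3.58.1 in R 4.3.3 (linear model, moderated variances with a trend, two-sided, Benjamini-Hochberg adjustment over all genes tested), a fit tested on simulated data, and calls were made at an adjusted p under 0.05. The 7 genes and the gene lists were chosen with earlier results of these data known. Named are the 7 genes, called genes of the lists, the 5 other early genes (outside the 7) with the highest control mean, EGR corepressor and retinoid X receptor genes and the 3 nearest profiles per gene. *Fos*, *Klf10*, *Bhlhe40*, *Plk2*, *Rgs2*, *Crtc3*, *Srf*, *Creb1*, *Mapk3*, *Npas4*, *Dnajb1*, *Hspa1a*, *Dbp*, *Hlf*, *Ciart*, *Arntl*, *Clock* and single cell type markers were named after their values were seen. Positions are those of GENCODE M21, and promoters those of RefSeq. Tables and figures used Python 3.11.15, numpy 2.4.6, pandas 2.3.3 and matplotlib 3.10.9. Pseudocounts, minimums, scalings, variance models, a replicate block and each library left out were tried as 16 alternatives, and 1 was added after the data were seen.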

Additional observations from a re-analysis of the deposited data

How the results depend on the processing

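The sign of the fold change was the same under all 17 alternatives for 6 of the 7 genes, and *Egr2* reversed to 0.17 on the log2 scale without knockout replicate 3 (range −0.29 to 0.17 with 1 library left out). The median log2 fold change ranged from −1.43 to −1.21 for the 7 genes and from −0.49 to −0.29 for the other early genes. Counts of calls depended on the settings. Genes called, 56 as reported, were 10 with no expression minimum, 153 under median-of-ratios scaling, 129 under quantile normalization, 145 without mitochondrial and 45S transcripts, 33 without a variance trend and 494 with array weights. Of the 7 genes, 4 as reported, 0 were called with no minimum, 2 without a trend, 3 under each of the 3 other scalings (*Egr3* lost) and 5 with array weights (*Egr1* gained). Other early genes called lower, 3 as reported, were 0 with no minimum, 0 without a trend and 11 with array weights, where *Klf10*, *Bhlhe40* and *Plk2* were also called higher. Clock and heat shock genes called, 1 as reported, were 2 with a pseudocount of 0.1, 0 with no minimum, 4 at a minimum of 2 TPM, 3 under median-of-ratios scaling, 2 without mitochondrial and 45S transcripts and 8 with array weights. Under these settings 0 upstream factors were called.

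With 1 library left out, 5 (without control 2) to 61 genes, 0 to 2 of the 7, 0 to 2 other early genes and 0 to 2 clock and heat shock genes were called. Without control 2 and knockout 1 together, the counts were 13, 1, 0 and 0. With the replicate block they were 4, 1, 0 and 0. The labels state no pairing, and deviations from the group means of same-numbered libraries correlated at −0.13, −0.11 and 0.02, so the samples were not treated as paired. In groups of 3 such correlations cannot exclude that same-numbered libraries share a batch. With 3 libraries a group, no depth per library and groups too small for an outlier test, differences among low genes such as *Egr2* and *Arc* rest on values with an unknown counting error.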
